A study of Homo sapiens with 6 samples.

Results

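The genes described here encode the scaffold proteins of the postsynaptic density: the SHANK genes SHANK1, SHANK2 and SHANK3, the HOMER genes HOMER1, HOMER2 and HOMER3, DLG4 (which encodes PSD-95), and the DLG-associated genes DLGAP1 and DLGAP4. They were chosen by gene symbol, and no measured value entered the choice. Of the 9 genes listed, 8 were found among the 21301 genes of the count table, and DLGAP1 was not analysed here. The libraries came from SH-SY5Y, a human neuroblastoma cell line used as a neuronal cell model. The cells were treated for 72 h with 10 nM of siPSF, which targets the RNA-binding protein PSF, or with siControl, and each treatment was sequenced as 3 libraries. The methods name siPSF #2 for this experiment, a single siRNA, so its effects through PSF and any other effects cannot be told apart. The study describes the 3 libraries of each treatment as biological replicates, without saying how the cultures were separated.

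At an excitatory synapse the postsynaptic density holds glutamate receptors against the membrane and links them to the actin cytoskeleton. PSD-95 sits nearest to the membrane and binds the tails of NMDA receptors and neuroligins, DLGAP proteins (also called GKAP or SAPAP) bind PSD-95, and SHANK proteins bind DLGAP proteins. HOMER proteins assemble through coiled coils and connect SHANK with metabotropic glutamate receptors and inositol trisphosphate receptors. A short form of HOMER1, Homer1a, lacks the coiled coil and is induced by neuronal activity. Gene counts do not separate it from the long forms. SH-SY5Y cells in culture are proliferating tumour cells, so the values below are RNA levels of these genes and not measurements of synapses.

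HOMER2 was the only member called different between the groups, and it was lower after siPSF. That count, 1 of 8, was near the share of 14.9% called over all genes tested. HOMER1, HOMER3, DLG4 and DLGAP4 also had lower means, and SHANK1, SHANK2 and SHANK3 had higher means, without passing the test. On the FPKM scale the sign of SHANK2 turned. With FPKM scaled to equal library sums that of SHANK1 turned too, to -0.086, on a scale where the median of all genes was -0.12. HOMER2 lies on chromosome 15 of GRCh38 from 82834661 to 82986157, on the minus strand, and HOMER1 lies on chromosome 5 from 79372636 to 79514134, also on the minus strand. The bases just before the RefSeq start of HOMER2 are shown because it is the member that passed the test, and those of its paralogue HOMER1 for comparison. Each is written 5′ to 3′ on the gene's strand from the RefSeq promoter table of GRCh38.p14, with matches to the GC box GGGCGG or its reverse complement CCGCCC in capitals.

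HOMER2 chr15:82952729-82952970 (242 bases, ending 8 bases before the listed start because a GENCODE exon covers those 8 bases): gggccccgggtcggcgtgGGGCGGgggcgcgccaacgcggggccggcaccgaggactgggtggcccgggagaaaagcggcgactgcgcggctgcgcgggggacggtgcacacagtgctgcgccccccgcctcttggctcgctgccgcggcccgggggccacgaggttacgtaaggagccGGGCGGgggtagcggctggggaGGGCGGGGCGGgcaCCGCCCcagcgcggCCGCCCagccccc
HOMER1 chr5:79514135-79514384 (250 bases): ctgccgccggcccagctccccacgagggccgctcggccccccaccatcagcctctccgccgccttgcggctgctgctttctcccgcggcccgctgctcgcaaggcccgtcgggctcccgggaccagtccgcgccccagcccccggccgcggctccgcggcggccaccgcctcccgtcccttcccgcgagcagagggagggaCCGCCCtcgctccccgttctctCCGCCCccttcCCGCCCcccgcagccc

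Both stretches were rich in G and C. The HOMER2 stretch held 6 GC box matches, a pair of which share a base, and 35 CpG dinucleotides at 81.4% G and C. The HOMER1 stretch held 3 matches and 33 CpG dinucleotides at 80% G and C. Over the 35116 RefSeq promoter entries, the 250 bases before the start had a median of 58.0% G and C and 11 CpG dinucleotides, and 42.6% of them held at least 1 GC box on either strand. The HOMER2 stretch lies inside the full span of the gene, since longer gene models start further upstream, and the libraries do not show which start was used. Promoter entries were found for 6 of the 8 members; SHANK1 and SHANK2 had none.

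The siControl libraries held 119019293 to 132420931 counts and the siPSF libraries 101540520 to 120627283. Levels below are TMM-normalised CPM, a gene's counts relative to the library's total, except for the cell type markers. The target gene SFPQ, which encodes PSF, was at 372, 356 and 401 CPM in the siControl libraries and at 209, 193 and 165 CPM in the siPSF libraries, so that 50.2% of its RNA was left (edgeR's quasi-likelihood test, adjusted p = 9.5e-05). The cell type markers are given as plain CPM, without the TMM factors. Those factors were 1.008 to 1.053 in siControl and 0.9639 to 0.9848 in siPSF, and group differences in the marker sums include this difference. Of 10 markers of sympathoadrenal neuroblastoma, 9 were above 1 CPM and TH was below it, and their summed level ranged from 5189 to 5707 CPM in siControl and from 4419 to 5349 CPM in siPSF libraries. The markers of cortical glutamatergic neurons found, 3 of 4, summed to at most 1.15 CPM. The mesenchymal markers, 5 of 6, summed to between 5.74 and 8.23 CPM in siControl and between 7.77 and 9.81 CPM in siPSF. The astrocyte markers, 2 of 4, summed to between 3.17 and 4.81 CPM in siControl and between 2.68 and 3.09 CPM in siPSF, mostly from SLC1A2. Of the oligodendrocyte markers, 0 of 4 were analysed here. The part of these small differences in the results below was not tested. In bulk RNA, fewer cells that express a gene and less of its RNA per cell cannot be told apart.

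Levels of different genes were compared per length, as the FPKM values deposited with the counts. DLGAP4 and DLG4 had the highest levels and SHANK2 the lowest, and the order in siControl was DLGAP4, DLG4, HOMER3, HOMER2, SHANK1, SHANK3, HOMER1 and SHANK2. The siControl means were 28.4 ± 1.0 FPKM for DLGAP4 and 21.5 ± 2.1 FPKM for DLG4 (SD, n = 3 each). HOMER3 followed at 14.3 ± 2.46, HOMER2 at 6.82 ± 0.426 and SHANK1 at 5.65 ± 0.0492 FPKM (SD, n = 3 each). SHANK3 was at 2.68 ± 0.122, HOMER1 at 1.91 ± 0.465 and SHANK2 at 1.33 ± 0.137 FPKM (SD, n = 3 each), so that DLGAP4 was 21.3-fold above SHANK2. No neighbours in this order overlapped in their siControl libraries, although HOMER1 and SHANK2 lay close (lowest HOMER1 library 1.63, highest SHANK2 library 1.44 FPKM). In siPSF the order was the same but for SHANK1 and HOMER2, which changed places with overlapping libraries (5.77 ± 0.828 and 4.65 ± 0.515 FPKM, SD, n = 3 each), and HOMER1 overlapped SHANK2 (1.40 ± 0.281 and 1.24 ± 0.0488 FPKM). These levels depend on the exon lengths used for FPKM.

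**Figure D1:**
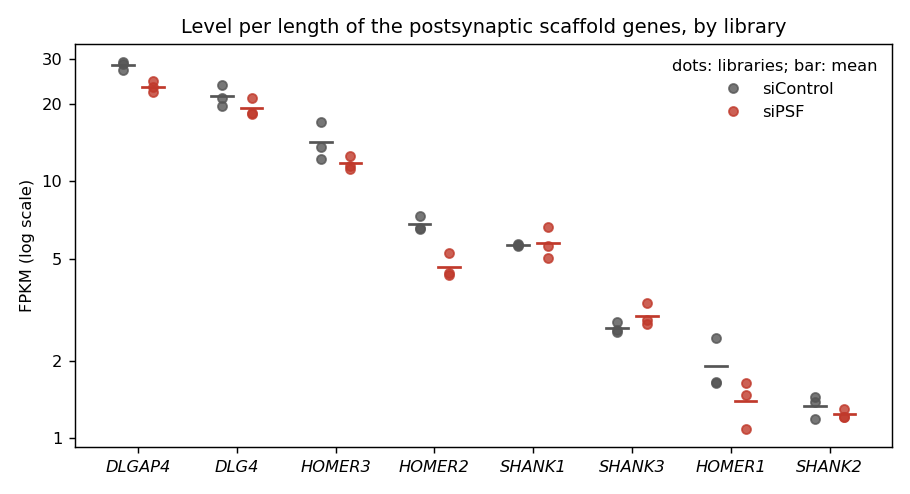
FPKM (log scale) of the 8 scaffold genes in the 3 siControl (grey) and 3 siPSF (red) libraries, ordered by the siControl mean; dots are libraries and bars are group means. The genes ran from DLGAP4 at 28.4 FPKM to SHANK2 at 1.33 FPKM in siControl, and the groups of HOMER2 and DLGAP4 did not overlap.

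Within the SHANK family, SHANK1 made up the largest part of the summed FPKM. Its share was 57.1%, 60.0% and 58.3% in the siControl libraries and 55.9%, 57.2% and 59.4% in the siPSF libraries. SHANK3 held 28.8%, 27.5% and 27.0% in siControl and 30.7%, 29.6% and 29.8% in siPSF, so that its share was higher in every siPSF library, with a mean of 27.8 ± 0.947% against 30.03 ± 0.602% (SD, n = 3 each). SHANK2 held the rest, with means of 13.8 ± 1.15% and 12.5 ± 1.49%. Within the HOMER family, HOMER3 held a mean of 61.8 ± 5.88% in siControl and 66.1 ± 3.09% in siPSF, HOMER2 29.8 ± 3.53% and 26.1 ± 2.98%, and HOMER1 8.41 ± 2.43% and 7.81 ± 1.25% (SD, n = 3 each), all with overlapping groups. The summed HOMER level was 25.2, 21.8 and 22.0 FPKM in siControl and 17.9, 17.0 and 18.6 FPKM in siPSF, which did not overlap. The summed SHANK level was 9.80, 9.43 and 9.77 FPKM in siControl and 9.03, 9.76 and 11.2 FPKM in siPSF, which overlapped.

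The question of the comparison was which RNAs changed when PSF was reduced. All 8 members passed the filter on low counts and were tested with edgeR's quasi-likelihood method among 19694 genes, from which all adjusted p-values below come unless another tool is named. With the adjusted p held under 0.05, 1 member was lower and 0 were higher in siPSF. Over all genes tested, 14.9% were called, 8.27% lower and 6.65% higher, so the member count was near the background. DESeq2's Wald test also called 1 member lower and 0 higher. An unadjusted p under 0.05 was reached by 4 members, SHANK3, HOMER1, HOMER2 and DLGAP4, and by 29.8% of all genes. The groups did not overlap in 3 members, HOMER2 and DLGAP4 lower and SHANK3 higher, where 34.4% of all genes did not overlap. In FPKM 2 members, HOMER2 and DLGAP4, did not overlap, beside 35.5% of all genes. The median log2 fold change of the 8 members was -0.16, against 0.0097 over all genes.

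The SHANK proteins form the deepest layer of the scaffold, and none of the 3 genes passed the test. SHANK1 (gene ID 50944; chromosome 19 from 50659255 to 50719802, minus strand) was at 58.4, 59.2 and 57.1 CPM in the siControl libraries and at 54.2, 61.1 and 73.2 CPM in the siPSF libraries. Its siPSF libraries lay on both sides of the siControl range, with siPSF replicate 3 the highest, and the log2 fold change was 0.11 (95% interval -0.12 to 0.34, adjusted p = 0.53). Without siPSF replicate 3 the value was -0.014, so its direction rests on that library.

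SHANK2 (gene ID 22941; chromosome 11 from 70467854 to 71253234, minus strand) is the longest of the members analysed, with a span of 785 kb. It was at 14.6, 13.9 and 15.5 CPM in siControl and at 14.6, 15.9 and 14.8 CPM in siPSF libraries. The groups overlapped, with a log2 fold change of 0.039 (95% interval -0.18 to 0.26, adjusted p = 0.84). The interval allows between 88.2% and 119.6% of the siControl level. In FPKM the mean of SHANK2 was lower in siPSF (log2 fold change of FPKM + 0.5 of -0.077, limma).

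SHANK3 (gene ID 85358; chromosome 22 from 50672823 to 50733212, plus strand), the member whose loss causes Phelan-McDermid syndrome, was at 23.5, 21.7 and 21.1 CPM in siControl and at 23.8, 25.2 and 29.2 CPM in siPSF libraries. Every siPSF library was above every siControl library, but the lowest siPSF and the highest siControl library were close. The log2 fold change was 0.24 (95% interval 0.012 to 0.47, adjusted p = 0.15). In FPKM its groups overlapped, and without siPSF replicate 3 the log2 fold change was 0.15.

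The HOMER proteins tie SHANK to metabotropic receptors and calcium stores. HOMER2 (gene ID 9455; 151 kb) was at 38.1, 39.4 and 43.1 CPM in the siControl libraries and at 31.3, 32.2 and 26.8 CPM in the siPSF libraries. All 3 siPSF libraries were below all 3 siControl libraries, with means of 40.2 ± 2.60 and 30.1 ± 2.90 CPM (SD, n = 3 each). The log2 fold change was -0.42 (standard error 0.10, 95% interval -0.63 to -0.20, adjusted p = 0.016), a level at 74.9% of siControl (95% interval 64.4% to 87.2%). The call was lost without siControl replicate 2 (adjusted p = 0.051) and without siControl replicate 3 (adjusted p = 0.057), where the log2 fold changes were -0.44 and -0.37.

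HOMER1 (gene ID 9456; 141 kb) was at 10.3, 10.5 and 14.8 CPM in siControl and at 9.40, 7.09 and 10.7 CPM in siPSF libraries. The groups overlapped, because siPSF replicate 3 was above siControl replicates 1 and 2, and siControl replicate 3 stood above the other libraries. Its log2 fold change was -0.39, with a wider interval than that of HOMER2 (-0.77 to -0.0054, adjusted p = 0.16), and it moved with single libraries. It was -0.20 without siControl replicate 3 (adjusted p = 0.50) and -0.24 without siPSF replicate 2 (adjusted p = 0.40), and without siPSF replicate 3 HOMER1 was called lower (-0.52, adjusted p = 0.044).

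HOMER3 (gene ID 9454; chromosome 19 from 18929201 to 18941217, minus strand) is the shortest member, at 12.0 kb. It was at 28.8, 23.2 and 20.2 CPM in siControl and at 19.6, 20.5 and 22.5 CPM in siPSF libraries, and its siControl libraries spread more widely than its siPSF libraries. The log2 fold change was -0.20 (95% interval -0.48 to 0.073, adjusted p = 0.31). It was -0.056 without siControl replicate 1 (adjusted p = 0.81) and -0.32 without siControl replicate 3 (adjusted p = 0.13), so its size rests on those libraries.

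DLG4 (gene ID 1742; chromosome 17 from 7187187 to 7220050, minus strand) encodes PSD-95, the membrane-associated guanylate kinase that anchors receptors and neuroligins. Its level was 108, 105 and 96.3 CPM in siControl and 97.8, 99.9 and 88.0 CPM in siPSF libraries. The groups overlapped, and the log2 fold change was -0.11 (95% interval -0.30 to 0.072, adjusted p = 0.41). The interval allows between 81.2% and 105% of the siControl level, and without siPSF replicate 3 the log2 fold change was -0.060.

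DLGAP4 (gene ID 22839; chromosome 20 from 36306339 to 36528633, plus strand), an adaptor between PSD-95 and SHANK, was at 113, 115 and 102 CPM in siControl and at 89.4, 98.7 and 99.8 CPM in siPSF libraries. Every siPSF library was below every siControl library, by a narrow margin between siControl replicate 3 and siPSF replicate 3. The log2 fold change was -0.20 (95% interval -0.38 to -0.011, adjusted p = 0.15). On the deposited FPKM values limma called DLGAP4 lower (log2 fold change of FPKM + 0.5 of -0.27, adjusted p = 0.030), a scale on which the median of all genes was -0.042.

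**Figure D2:**
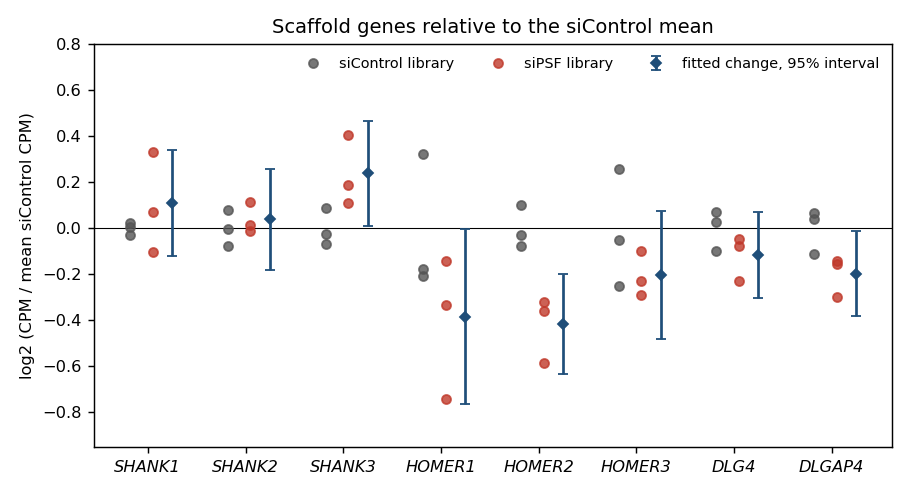
Log2 ratio of each library's CPM to the siControl mean for the 8 scaffold genes, with siControl libraries in grey, siPSF libraries in red and the fitted log2 fold change with its 95% interval as a blue diamond. All siPSF libraries of HOMER2 lay below its siControl libraries (fitted value -0.42), and SHANK2 stayed near 0 (fitted value 0.039).

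Whether paralogues changed by different amounts was tested on the log2 ratio of their CPM per library, with an exact two-sided permutation test over libraries, whose smallest possible p is 0.1 with 3 libraries against 3. Of the 7 pairs planned, 6 could be compared, since DLGAP1 was not analysed here. In none of the 6 pairs did the groups fail to overlap, and the smallest p was 0.2 (adjusted p = 0.60, exact permutation). The ratio of HOMER2 to HOMER3 changed by -0.23 on the log2 scale (means 0.76 ± 0.34 and 0.53 ± 0.24, SD, n = 3 each; exact permutation p = 0.4, adjusted 0.80). The ratio of HOMER1 to HOMER2 changed by 0.034 (exact permutation p = 1.0). For SHANK2 to SHANK3 the ratio changed by -0.20 in CPM (exact permutation p = 0.2, adjusted 0.60). In FPKM it changed by -0.26 without overlap between the groups (exact permutation p = 0.1, adjusted 0.40). The call of HOMER2 and the missing calls of HOMER1 and HOMER3 thus do not show that these genes responded differently.

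Genes of greater length had lower log2 fold changes in these libraries, so each member was set beside the protein-coding genes in its bin of gene length (20 bins of 720 or 721 genes). SHANK2 fell in the bin of the longest genes, of 272 kb or more, whose median log2 fold change was -0.40 and of which 45.1% were called lower. Its own value of 0.039 lay 0.44 above that median, at the 86.1 percentile of the bin. RefSeq's span covers all known starts of SHANK2, and the counts do not show whether these cells transcribed the whole span or only the part below an internal start.

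HOMER1 and HOMER2 shared a bin of 123 to 167 kb with a median of -0.12, and lay 0.26 and 0.30 below it, at the 18.2 and 15.5 percentiles. For HOMER2 the length is that of the full span, and a start inside it would make the transcribed gene shorter. HOMER3 lay 0.27 below the median of its bin of short genes, at the 12.3 percentile. DLGAP4, at 222 kb, lay 0.024 below its bin's median of -0.17. DLG4 lay 0.15 below its bin's median, and SHANK1 and SHANK3, both near 60 kb, lay 0.096 and 0.23 above theirs. So the 3 HOMER genes lay below the median of genes of like length and the 3 SHANK genes above it; these positions were not tested, and the values of HOMER1, HOMER3 and SHANK1 move with single libraries as given above. With 10 bins SHANK2 lay 0.30 above the median, and DLGAP4 0.065 above in place of below.

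**Figure D3:**
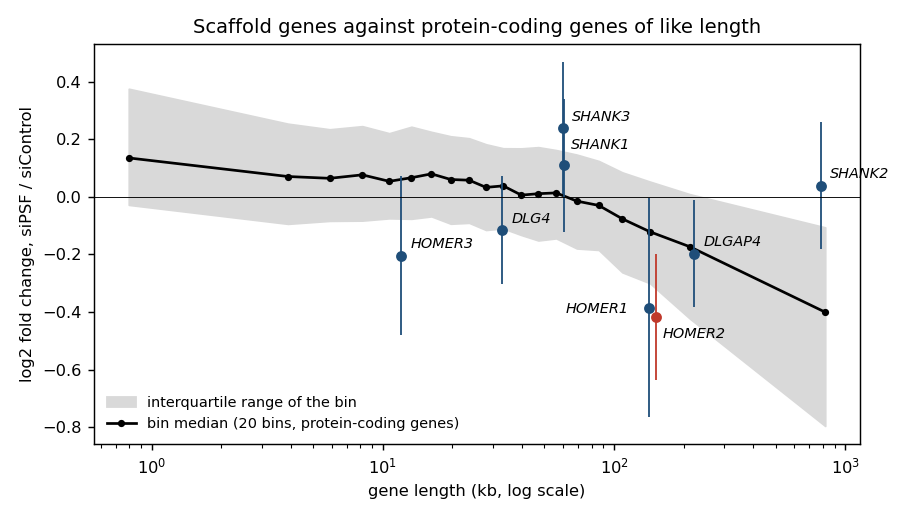
Fitted log2 fold change of the 8 scaffold genes (points with 95% intervals, HOMER2 in red as the member called) against gene length in kb (log scale), over the median (black line) and interquartile range (grey) of protein-coding genes in 20 bins of length, drawn at the geometric middle of each bin. The bin median fell to -0.40 in the longest genes, where SHANK2 was at 0.039.

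Overlapping genes on the opposite strand could add reads to a member, because the sources name both a stranded and an unstranded kit and do not say whether counting used strand. HOMER2 shares 1448 bases of its span with WHAMM, which was at 5.71 ± 0.243 and 5.50 ± 0.263 CPM in the 2 groups (SD, n = 3 each; log2 fold change -0.054, adjusted p = 0.81). DLG4 shares 2926 bases with ACADVL, a more abundant gene of mitochondrial fatty acid oxidation, which was at 261 ± 14.3 and 261 ± 22.7 CPM (SD, n = 3 each; log2 fold change -0.0025, adjusted p = 0.99). SHANK1 shares 52 bases with C19orf81, at 1.91 ± 0.450 and 1.93 ± 0.184 CPM. These 3 neighbours thus gave log2 fold changes between -0.054 and 0.0085. From the span of DLGAP1 itself, 4 noncoding genes were in the table. DLGAP1-AS1 was at 1.10 ± 0.159 and 1.13 ± 0.204 CPM, DLGAP1-AS2 at 0.402 ± 0.175 and 0.419 ± 0.0476 CPM, and the pseudogene LOC100419892 at 0.468 ± 0.105 and 0.454 ± 0.0389 CPM in siControl and siPSF (SD, n = 3 each). LOC105371967, with 2 to 13 counts per library, did not pass the filter.

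The wider postsynaptic machinery was described with 3 lists. Of the 7 other MAGUK and DLGAP paralogues, 6 were tested, and 0 passed in edgeR or by DESeq2's Wald test. An unadjusted p under 0.05 in edgeR was reached by 2 of the 6, DLG5 and DLGAP3, and by 29.8% of all genes. Their median log2 fold change was -0.19. DLGAP3, the DLGAP gene best known from the striatum, was at 28.8, 27.8 and 25.2 CPM in siControl and at 23.3, 22.7 and 22.4 CPM in siPSF libraries, without overlap (log2 fold change -0.26, 95% interval -0.46 to -0.053, adjusted p = 0.086). limma on log2(FPKM + 0.5) called it lower (-0.37, adjusted p = 0.043).

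DLG5, a MAGUK of cell polarity, was at 142, 147 and 147 CPM in siControl and at 125, 140 and 95.6 CPM in siPSF libraries (log2 fold change -0.28, adjusted p = 0.14), where siPSF replicate 3 stood lowest; without siPSF replicate 3 the value was -0.14 (adjusted p = 0.34), and without siPSF replicate 2 it was called lower (-0.40, adjusted p = 0.043). DLG2 (PSD-93), with a span of 2173 kb, was low throughout, at 2.75, 2.52 and 2.72 CPM in siControl and at 2.32, 2.35 and 1.21 CPM in siPSF libraries (log2 fold change -0.44, adjusted p = 0.22), and without siPSF replicate 3, its lowest library, the value was -0.19. DLG1 (SAP97) was at 49.5 ± 4.45 and 48.4 ± 7.36 CPM (SD, n = 3 each; log2 fold change -0.033, adjusted p = 0.88). The log2 fold changes of DLG3 (SAP102) and of DLGAP5, which encodes a spindle protein of mitosis, were 0.18 (adjusted p = 0.42; 0.070 without siControl replicate 3 and 0.34 without siControl replicate 1) and -0.13 (adjusted p = 0.58).

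Of 20 direct partners of these scaffolds, 18 were tested, 3 were lower and 1 was higher in siPSF, and the median log2 fold change was -0.022. The share called was 22.2%, beside 14.9% of all genes (8.27% lower and 6.65% higher), and the difference was not tested. KALRN, the guanine nucleotide exchange factor kalirin that binds PSD-95 in spines, was at 49.3, 54.4 and 60.8 CPM in siControl and at 29.0, 29.2 and 25.3 CPM in siPSF libraries. These groups were far apart, as 50.7% of the level was left (log2 fold change -0.98, standard error 0.10, adjusted p = 1.4e-04) by counts. On the deposited FPKM values the change was smaller but still called, at -0.42 for FPKM + 0.5, -0.46 for FPKM + 0.1 and -0.53 after rescaling (limma, adjusted p = 0.016 to 0.027). NLGN1, the neuroligin that binds PSD-95, fell from the low level of 0.914 ± 0.272 to 0.289 ± 0.109 CPM (SD, n = 3 each; log2 fold change -1.67, adjusted p = 0.0063). Limma on FPKM did not call it (log2 fold changes -0.35 with FPKM + 0.1 to -0.088 with FPKM + 0.5, adjusted p = 0.12 to 0.20). The constant added to FPKM shrinks the change of a gene this low, so these fits cannot decide the call. BAIAP2 (IRSp53), which binds SHANK and PSD-95 and shapes actin, was at 19.98, 17.8 and 15.1 CPM in siControl and at 22.3, 23.0 and 25.8 CPM in siPSF libraries. It rose without overlap (log2 fold change 0.43, adjusted p = 0.030) and lost the call without siControl replicate 2 (adjusted p = 0.10), siControl replicate 3 (0.098), siPSF replicate 2 (0.051) or siPSF replicate 3 (0.053).

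Of 25 other postsynaptic adaptors and enzymes, 23 were tested, 1 was lower and 2 were higher, and the median log2 fold change was -0.050. The share called was 13.0%, near the 14.9% of all genes. PSD3, an ARF6 exchange factor named for its pleckstrin and Sec7 domains and not for the postsynaptic density, was at 27.5, 26.9 and 31.3 CPM in siControl and at 21.3, 20.9 and 17.4 CPM in siPSF libraries (log2 fold change -0.52, adjusted p = 0.0077). Both genes that rose encode subunits of 1 kinase, whose more abundant subunit genes CAMK2D and CAMK2G were not called. Those were at 18.9 and 69.5 CPM in siControl, with log2 fold changes of 0.23 and -0.11 (adjusted p = 0.22 and 0.40). CAMK2B, a subunit of calcium/calmodulin-dependent kinase II, was at 3.95, 2.94 and 2.93 CPM in siControl and at 5.79, 6.26 and 5.43 CPM in siPSF libraries (log2 fold change 0.83, adjusted p = 0.0040; 0.54 for FPKM + 0.5 and 0.47 after rescaling by limma, both called). CAMK2A, the subunit that is abundant in forebrain synapses, was low, at 0.387 ± 0.0762 and 0.925 ± 0.290 CPM (SD, n = 3 each; log2 fold change 1.25, adjusted p = 0.013), and lost the call without siControl replicate 2 (adjusted p = 0.061) or replicate 3 (0.068), and by limma with FPKM + 0.5 (0.21, adjusted p = 0.053) or after rescaling (0.19, adjusted p = 0.056). With FPKM + 0.1 limma called CAMK2A higher (0.61, adjusted p = 0.041). At so low a level the added constant shrinks the change, so the limma fits cannot decide the call. Over the 3 lists, 7 of 47 genes (14.9%) were called, the same share as over all genes.

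**Figure D4:**
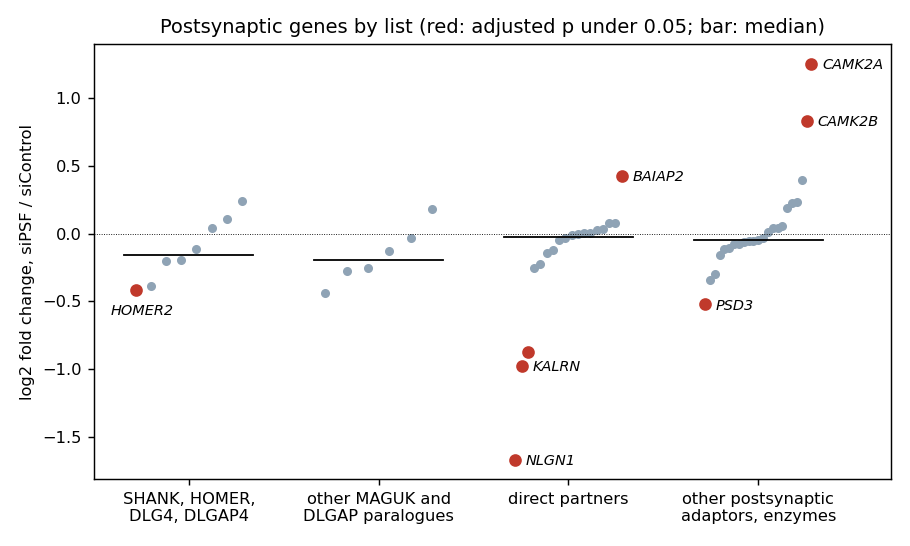
Fitted log2 fold change, siPSF over siControl, of the 8 scaffold genes and the genes tested in the 3 lists, sorted within each list; red points passed an adjusted p of 0.05, and black bars are medians. The medians of the 4 groups lay between -0.19 and -0.022, with single genes far from them, from NLGN1 at -1.67 to CAMK2A at 1.25.

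The 4 list genes that fell, KALRN, NLGN1 and PSD3 among them, all belonged to the bin of the longest genes. Of the members and list genes together, 19 were in that bin, and 4 of them (21.1%) were called lower with a median log2 fold change of -0.081, beside 45.1% and -0.40 over all 721 protein-coding genes of the bin. With genes of at least 10 CPM in siControl, 2 of 15 (13.3%) were called lower, beside 51.7% of 416. SHANK2 was among those not called, as were MAGI1, MAGI2, GPHN, the scaffold of inhibitory synapses, and CASK, with log2 fold changes of -0.081, -0.16, -0.056 and -0.035. Others not called had lower values, among them DLG2 at -0.44, MAGI3 at -0.35 and ITPR1 at -0.25. This count and these names were chosen after the values were seen, and no test was made of it. Of the 36 members and list genes of the shorter bins, 1 was lower, HOMER2, and 3 were higher.

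To find which of these genes varied most like HOMER2, the root mean square difference of log2 CPM, centred on the siControl mean, was taken over the 6 libraries for the other 54 members and list genes. PSD3 was nearest at 0.080 and DLG5 next at 0.13, where the median gene was at 0.31. Like HOMER2, PSD3 and DLG5 had their lowest value in siPSF replicate 3, which a choice by likeness over the same libraries favours.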

How the data were processed

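RNA was measured in 6 poly(A) libraries of SH-SY5Y cells, 3 of siControl and 3 of siPSF, grouped by the submitted labels. The authors deposited 1 table of read counts per gene with FPKM values, which scale reads to gene length and library size. FPKM was not a fixed scaling of the deposited counts. Relative FPKM per count ranged over the libraries from 0.85 to 1.03 for HOMER2, from 0.939 to 1.09 for DLG4 and from 0.993 to 1.10 for SHANK2. Their methods name TopHat on hg38 with RefSeq genes. The submitters' processing notes instead name Trimmomatic, HISAT2 2.1.0 and StringTie 2.1.3b on GRCh38, and which steps made the table could not be settled. Reads of one gene can be lost or shared where genes overlap.

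Counts were tested with edgeR 4.0.16 in R 4.3.3 (filterByExpr, TMM factors of 0.9639 to 1.053, quasi-likelihood F test, Benjamini-Hochberg adjustment). The filter kept 19694 of 21301 genes, and the biological coefficient of variation was 12.6%. The smallest count in the table was 1, so genes without reads in a library are not in it, which may bear on the genes not analysed here. At these depths 1 CPM stands for about 100 reads or more. For the members, each with 748 or more reads per library, counting error was small beside the spread between libraries. NLGN1 and CAMK2A had means below 1 CPM in both groups, where counting error is a larger part of the spread. Levels of different genes were compared in FPKM. Gene spans, lengths and promoter sequences came from RefSeq tables (GRCh38.p14), and coordinates are 1-based. Alternatives used DESeq2 1.42.0, limma 3.58.1 on log2(FPKM + 0.5), also with FPKM rescaled to the same sum in each library or with a pseudocount of 0.1, DESeq2 size factors in edgeR, no filter on low counts, each library left out in turn, and a replicate block. The edgeR step was tested on simulated counts. Permutation tests used scipy 1.17.1.

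Named genes were the members, SFPQ, genes overlapping a member or named as its antisense, up to 4 called genes per list by p (lists of 7 or fewer in full), and the 2 genes most like each called member. Outside this rule, uncalled genes of the longest bin and CAMK2D and CAMK2G were named after the values were seen. The members, lists and tests were chosen with earlier results of these data known. Values of 1 called gene of the lists are not reported here.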

Additional observations from a re-analysis of the deposited data

How the results depend on the processing

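HOMER2 was lower under all 13 alternatives and called in 11 of them, with log2 fold changes from -0.47 to -0.34 when 1 library was left out. The count of members called lower was 1, ranged from 0 to 2 with 1 library left out (0 without siControl replicate 2 or 3, 2 without siPSF replicate 3), and was 2 under each limma fit on FPKM (pseudocount 0.5, the same after rescaling, and 0.1), which added DLGAP4. For SHANK1 the log2 fold change ranged from -0.014 without siPSF replicate 3 to 0.20 without siPSF replicate 1, and was -0.086 with rescaled FPKM. For SHANK2 it ranged from -0.0083 without siControl replicate 2 to 0.076 without siControl replicate 3, and was -0.077 with FPKM + 0.5, -0.16 after rescaling and -0.098 with FPKM + 0.1. DLG1 ranged from -0.14 without siPSF replicate 1 to 0.079 without siPSF replicate 3, and DLGAP5 from -0.28 without siPSF replicate 3 to 0.029 without siPSF replicate 2. Paralogues called lower were 0, with 0 to 1 on leaving out 1 library, 1 under limma with either pseudocount and 2 after rescaling. Direct partners called lower were 3, with 2 to 3 on leaving out 1 library, and 5 after rescaling; those called higher were 1, with 0 to 1 on leaving out 1 library. Adaptors and enzymes called lower were 1, with 1 to 2 on leaving out 1 library, 2 by DESeq2's Wald test and 3 after rescaling; those called higher were 2, with 1 to 3 on leaving out 1 library, and 1 with FPKM + 0.5 and after rescaling. Members that did not overlap upwards were 1 in CPM and 0 in FPKM. With 10 length bins SHANK2 lay 0.30 and DLGAP4 0.065 above the median. The cause of these changes was not tested. Over all genes, 1310 were higher and 1628 lower (55.4% of calls lower); 572 were higher and 928 lower without siControl replicate 2, limma on FPKM + 0.5 gave 804 and 1948 (70.8% lower), and rescaling gave 564 and 3573 (86.4% lower) with the median of all genes at -0.12. KALRN, CAMK2B and PSD3 were called under all 13 alternatives, KALRN with a smaller change on FPKM (-0.53 to -0.42).

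Libraries share numbers across the groups, but deviations of same-numbered libraries correlated at -0.0207, 0.196 and 0.088, and not every library correlated best with its own number, so the numbers were not taken as pairs. With the number as a replicate block 1389 genes were higher and 1640 lower, HOMER2 remained lower (adjusted p = 0.030), and BAIAP2 was no longer called (log2 fold change 0.43, edgeR adjusted p = 0.0501), leaving 0 direct partners higher.

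Depth did not limit the members, each with 748 or more reads per library. The limits are 3 libraries per group, a single siRNA, gene counts that merge isoforms such as the short and long HOMER1 forms, and an unknown use of strand in counting.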
